A study of Mus musculus with 32 samples.

Results

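The chaperone HSP90 and the co-chaperones that work with it were followed through 10 named genes: Hsp90aa1, Stip1, Ahsa1, Ahsa2, Cdc37, Ptges3, Fkbp4, St13, Chordc1 and Cacybp. They were taken by symbol, with all array probe sets (the groups of short probes that each read 1 transcript) assigned to that 1 symbol. Of the 10 genes, 9 were measured, by 19 of the 34945 probe sets with a single gene. Both probe sets listed for Ptges3 also name a second gene, so Ptges3 has no value here.

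The samples were 32 Affymetrix arrays of RNA from the striatum of male mice, 12 weeks old and of CBA X C57Bl/6 background. R6/2 mice carry the start of the human huntingtin gene with an expanded CAG repeat under the human promoter, which is active in many tissues, and are a rapidly progressing model of Huntington's disease; WT mice lack that transgene. There were 8 arrays of R6/2 mice on HSP990, 7 of R6/2 mice on vehicle, 10 of WT mice on HSP990 and 7 of WT mice on vehicle. HSP990, an inhibitor of HSP90, and vehicle were both given by mouth, and the design text of the series, not the array labels, gives 12 mg/kg and 4 h.

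HSP90 is an ATP-driven chaperone that finishes the folding of kinases, steroid receptors and other client proteins. Co-chaperones bring clients over from HSP70, speed up or slow down its ATPase cycle and steer it to particular clients. In cells whose HSP90 is blocked, heat shock transcription factors are released and bind heat shock elements, which are inverted repeats of GAA units in chaperone gene promoters.

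HSP990 was accompanied by higher levels of most of these genes in both genotypes. In R6/2 mice 6 of the 9 measured genes rose and none fell (Ahsa1, Ahsa2, Fkbp4, St13, Chordc1 and Cacybp), where 2.18% of all 18193 genes rose and 0.918% fell. In WT mice 8 of 9 rose and none fell, all but Cdc37, where 2.24% of all genes rose and 3.57% fell. The median log2 difference of the 9 genes was 0.64 in R6/2 mice and 0.97 in WT mice, beside medians over all genes of 0.02 in R6/2 mice and -0.03 in WT mice. A gene is said to rise or fall where limma's moderated test gave an adjusted p under 0.05 over all genes, and differences are in log2 units with their standard errors.

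The promoters of these genes were read for heat shock element letters, because most of the genes moved together. A RefSeq set of promoters of build GRCm38.p6, which gives 300 bases around each start (250 before it and 50 from it on), held 8 of the 10 genes and neither Hsp90aa1 nor St13. The letters GAANNTTC or TTCNNGAA, which make a pair of inverted units read alike on both strands, stood in 3 of the 8 promoters (Chordc1, Fkbp4 and Cdc37) and in 15.1% of all 32851 promoters of the set. In the windows below, 5′ to 3′ on the gene's strand, capitals mark the units.
Chordc1: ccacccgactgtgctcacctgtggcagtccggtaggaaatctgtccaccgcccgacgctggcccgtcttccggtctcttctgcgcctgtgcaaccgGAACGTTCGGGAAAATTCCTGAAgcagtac
Fkbp4: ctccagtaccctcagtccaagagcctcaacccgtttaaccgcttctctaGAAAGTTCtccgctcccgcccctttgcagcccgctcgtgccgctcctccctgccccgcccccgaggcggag
Cdc37: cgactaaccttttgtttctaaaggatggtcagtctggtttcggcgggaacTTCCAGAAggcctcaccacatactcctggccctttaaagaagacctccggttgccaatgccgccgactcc

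The Chordc1 window is chr9:18292167-18292292 on the plus strand. Its 5 units follow each other without a break from base -4 to base 19, where the start is base 1 and there is no base 0. The run GAANNTTCNNGAANNTTCNNGAA (searched on both strands, overlapping the shorter motifs) was found in 1 of the 32851 promoters, the one of Chordc1, and its 3-unit part GAANNTTCNNGAA in 0.603% of them. Runs of 2 to 5 units were searched, and 5 is the length of the Chordc1 run. The match in Chordc1 therefore describes that promoter and is not a test. The Fkbp4 window is chr6:128438737-128438856 on the minus strand, with 1 pair of units from base -151 to base -144, and the Cdc37 window is chr9:21150035-21150154 on the minus strand, with 1 pair from base -170 to base -163. Fkbp4 and Chordc1 rose on HSP990 in both genotypes, whereas Cdc37, with a pair of units as Fkbp4 has, did not pass in either. A further pair stands from base 34 to base 41 of Chordc1. The promoters of Stip1, Ahsa1, Ahsa2, Ptges3 and Cacybp had none of these letters in the 300 bases, and among them are genes that rose. A match of letters is a description and not evidence of binding.

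**Figure D1:**
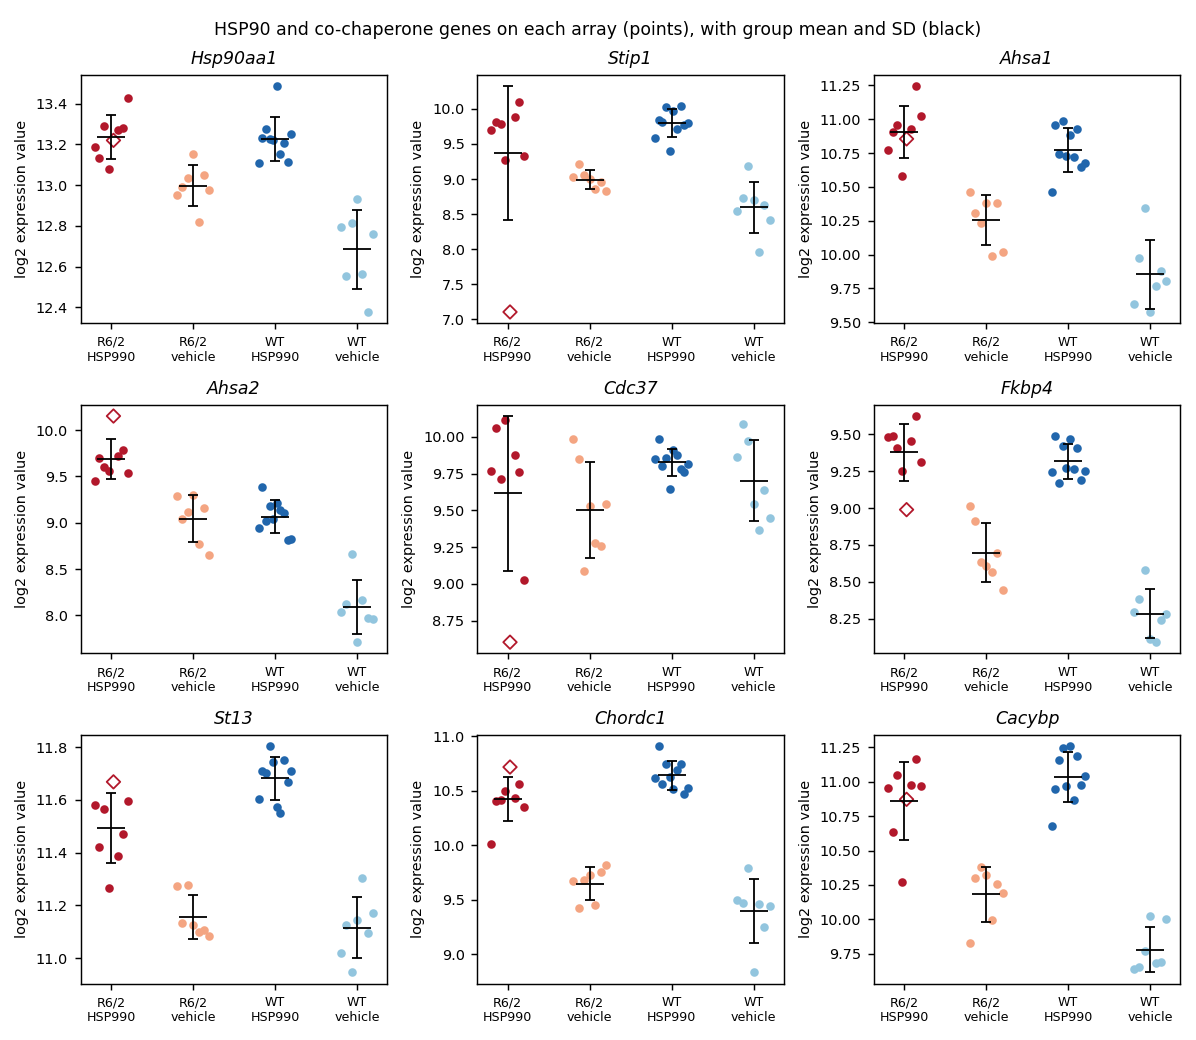
Log2 expression value (vertical axis) of the 9 measured genes on each of the 32 arrays, by group (horizontal axis), at the probe set with the highest mean; black lines are group means with SD, and the open diamond is R6/2 HSP990 replicate 5. On HSP990 the WT arrays lie above all WT vehicle arrays for 8 genes, and the R6/2 arrays lie above all R6/2 vehicle arrays for Ahsa1, Ahsa2 and Chordc1. Of all genes, 0.731% had this in WT mice and 0.5% in R6/2 mice.

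The arrays had medians of 5.73 to 5.78 and no pair held identical values; their number sets the precision of a group mean. Animals are not identified in the labels, so the spread behind each p-value is that between arrays and may be technical. The tissue carried the markers of striatal medium spiny neurons: 8 of 10 listed markers were measured, with array means of 9.64 to 10.70 in R6/2 HSP990, 9.48 to 11.11 in R6/2 vehicle, 11.67 to 12.16 in WT HSP990 and 11.67 to 12.12 in WT vehicle arrays, and 7 of the 8 were lower in R6/2 mice on either treatment. Their part in the differences between genotypes below was not tested, and in whole tissue fewer cells of a type and less RNA per cell cannot be told apart. Interneuron markers (5 of 5 measured) had array means of 7.33 to 7.44 in R6/2 vehicle and 7.66 to 7.95 in WT vehicle arrays, with no overlap. On HSP990 they overlapped, at 7.26 to 7.70 in R6/2 and 7.48 to 7.87 in WT arrays. Microglia markers (5 of 5) had 7.94 to 8.43 in R6/2 HSP990 and 8.48 to 8.65 in WT HSP990 arrays, also with no overlap. On vehicle they overlapped, at 7.83 to 8.42 in R6/2 and 8.07 to 8.66 in WT arrays. Lower in R6/2 mice on HSP990 were 4 of 5 interneuron, 3 of 5 microglia, 3 of 5 astrocyte and 3 of 4 oligodendrocyte markers. On vehicle 2, 1, 1 and 1 of them were lower. Of all genes 11% were lower on HSP990 and 9.6% on vehicle. The part of these lists was not tested. Choroid plexus markers varied between arrays of 1 group, with means of 6.61 to 9.85 in R6/2 HSP990, 6.08 to 8.27 in R6/2 vehicle, 6.48 to 10.46 in WT HSP990 and 6.55 to 10.09 in WT vehicle arrays.

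One array stands furthest apart by its RNA. In R6/2 HSP990 replicate 5 the 3' minus 5' signal of the Gapdh and Actb control probe sets, a measure of RNA integrity in a method that starts at the 3' end, averaged 4.56, against 0.64 to 2.45 in the other 31 arrays. The signal also differed between groups, with medians of 1.46 in R6/2 HSP990, 1.07 in R6/2 vehicle, 1.04 in WT HSP990 and 1.43 in WT vehicle arrays, so HSP990 arrays had the higher median in R6/2 mice and the lower one in WT mice. Stip1, Cdc37 and Fkbp4 were lower there than in the other 7 arrays of the group, and Ahsa2, St13 and Chordc1 were higher. Without this array and WT vehicle replicate 5, the other array with a Gapdh difference over 2, 7 genes rose in R6/2 mice (Stip1 was added) and 8 in WT mice.

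Hsp90aa1 encodes the stress-inducible cytosolic HSP90 alpha, the drug's target. On arrays it was brighter than 99.8% of genes, with a mean of 13.06. Its lowest, median and highest values were 13.08, 13.25 and 13.43 in R6/2 HSP990 and 12.82, 12.99 and 13.15 in R6/2 vehicle arrays. They were 13.11, 13.22 and 13.49 in WT HSP990 and 12.38, 12.76 and 12.93 in WT vehicle arrays. The treated WT arrays all lay above the WT vehicle arrays, while 2 of the 8 treated R6/2 arrays lay within the range of R6/2 vehicle.

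The difference between HSP990 and vehicle for Hsp90aa1 was 0.24 ± 0.07 in R6/2 mice (1.18-fold, adjusted p = 0.0535, which does not pass) and 0.54 ± 0.07 in WT mice (1.46-fold, adjusted p = 9.24e-07). The R6/2 value passed in 10 of the 43 alternative fits, with adjusted p between 0.00424 and 0.116 over all of them. On vehicle Hsp90aa1 was higher in R6/2 mice by 0.31 ± 0.07 (adjusted p = 0.00181), with 6 of 7 R6/2 arrays above every WT array. On HSP990 the genotypes differed by 0.01 (95% interval -0.12 to 0.14), and WT vehicle had the lowest mean of the 4 groups.

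Its probe sets gave unequal sizes. At the second of them, 1437497_a_at, with a mean of 12.99, the rise was 0.37 ± 0.09 in R6/2 mice (adjusted p = 0.0285 over all single-gene probe sets) and 0.85 ± 0.09 in WT mice (7.52e-08). At 1426645_at, with a mean of 12.43, the difference was 0.48 ± 0.15 in R6/2 mice (adjusted p = 0.0809, not passing) and 1.19 ± 0.14 in WT mice (7.64e-07). The dim probe sets 1433251_at and 1441827_x_at had means of 4.87 and 3.24, both under the median probe set (5.77), and the second of them rose, by 0.25 in R6/2 mice and 0.42 in WT mice. Of the 3 bright probe sets the brightest gave the smallest differences. All 3 bright probe sets were higher in R6/2 than in WT mice on vehicle, by 0.31, 0.41 and 0.45.

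Ahsa1 and Ahsa2 encode activators of the HSP90 ATPase. Ahsa1 had lowest, median and highest values of 10.58, 10.92 and 11.25 in R6/2 HSP990 and 9.99, 10.31 and 10.46 in R6/2 vehicle arrays. In WT mice the values were 10.46, 10.74 and 10.99 on HSP990 and 9.58, 9.81 and 10.34 on vehicle. Neither genotype had any overlap between treated and vehicle arrays, which held for 0.5% of all genes in R6/2 mice and 0.731% in WT mice among genes that were higher.

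Ahsa1 rose by 0.65 ± 0.10 in R6/2 mice (1.57-fold, adjusted p = 0.000106) and by 0.92 ± 0.10 in WT mice (1.89-fold, adjusted p = 3.91e-08). Its other probe set, 1444500_at, with a mean of 7.32, gave 0.92 ± 0.09 in R6/2 mice and 1.34 ± 0.09 in WT mice, so both probe sets rose in both genotypes. On vehicle Ahsa1 was higher in R6/2 mice by 0.40 ± 0.10 (adjusted p = 0.00534), with all 7 arrays above the WT mean but 3 above every WT array. On HSP990 the genotypes differed by 0.13 (95% interval -0.05 to 0.32, adjusted p = 0.296).

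Ahsa2, a paralog of Ahsa1, had the largest differences between genotypes of the 9 genes. Its lowest, median and highest values were 9.45, 9.66 and 10.15 in R6/2 HSP990 and 8.65, 9.11 and 9.30 in R6/2 vehicle arrays, and 8.81, 9.07 and 9.38 in WT HSP990 and 7.71, 8.03 and 8.66 in WT vehicle arrays. The R6/2 vehicle arrays covered nearly the range of the treated WT arrays. The highest treated R6/2 array, at 10.15, was replicate 5.

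Ahsa2 rose on HSP990 by 0.64 ± 0.12 in R6/2 mice (1.56-fold, adjusted p = 0.000876) and by 0.97 ± 0.11 in WT mice (1.96-fold, adjusted p = 2.23e-07). It was higher in R6/2 mice by 0.62 ± 0.11 on HSP990 (1.54-fold, adjusted p = 2.26e-05) and by 0.95 ± 0.12 on vehicle (1.94-fold, adjusted p = 5.91e-07). On HSP990 every R6/2 array lay above every WT array, as 6.04% of all genes did, and on vehicle 6 of 7 did. Over all arrays, within groups, Ahsa2 rose by 0.17 ± 0.05 per unit of the 3' minus 5' control signal (adjusted p = 0.0255, where 13% of all genes had a slope that passed in either direction). Without R6/2 HSP990 replicate 5 the slope of Ahsa2 on that signal was 0.17 ± 0.08 and did not pass (adjusted p = 0.15). With that signal as a covariate its treatment differences were 0.53 ± 0.11 in R6/2 mice and 1.04 ± 0.10 in WT mice, its genotype differences 0.49 ± 0.10 on HSP990 and 1.0 ± 0.11 on vehicle, and all passed. It was the only 1 of the 9 measured genes whose higher value in R6/2 mice passed on both treatments.

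Stip1, also called HOP, is the scaffold that joins HSP70 to HSP90 so that a client can pass between them. From the lowest through the median to the highest array, its values were 7.11, 9.74 and 10.09 in R6/2 HSP990 and 8.83, 9.0 and 9.22 in R6/2 vehicle arrays. They were 9.40, 9.81 and 10.04 in WT HSP990 and 7.97, 8.62 and 9.19 in WT vehicle arrays. Apart from replicate 5, at 7.11, all treated R6/2 arrays were between 9.27 and 10.09 and above every R6/2 vehicle array.

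Stip1 rose by 1.2 ± 0.24 in WT mice (2.30-fold, adjusted p = 0.00157), and its difference in R6/2 mice was 0.38 ± 0.26 (adjusted p = 0.519). Without R6/2 HSP990 replicate 5 that difference was 0.70 ± 0.13 (adjusted p = 0.00177), and the higher value in R6/2 than in WT mice on vehicle, 0.40, passed (adjusted p = 0.0291, against 0.314 with all arrays, since the shared spread fell). The genotype difference on vehicle passed in only this 1 of the 43 alternatives. Over all of them it was 0.23 to 0.50, with adjusted p up to 0.511. Over all arrays, within groups, Stip1 fell by 0.60 ± 0.08 per unit of the 3' minus 5' control signal (adjusted p = 1.64e-06), where 13% of all genes had such a slope in either direction. Without replicate 5 the slope was -0.27 ± 0.09 (adjusted p = 0.034, where 18.9% of genes passed).

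**Figure D2:**
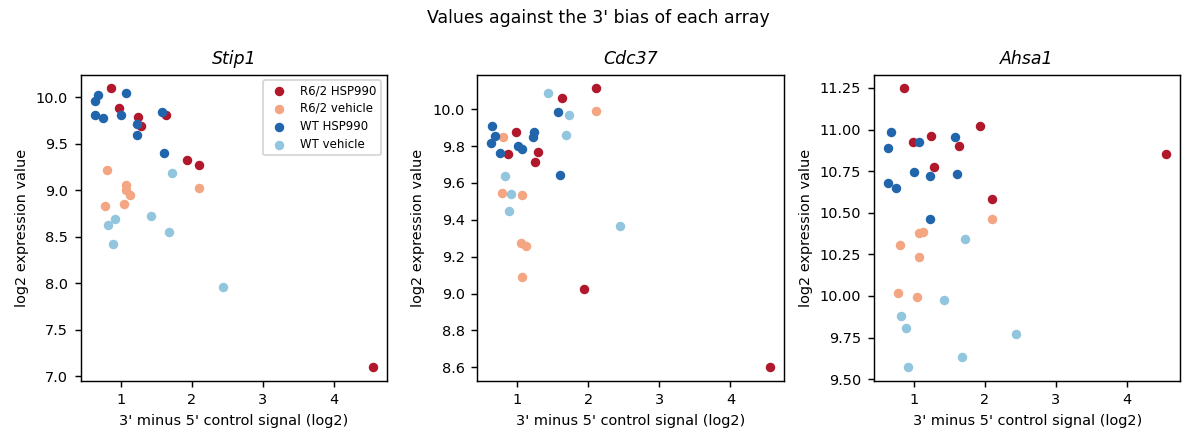
Log2 expression value of Stip1, Cdc37 and Ahsa1 (vertical axis) against the mean 3' minus 5' signal of the Gapdh and Actb control probe sets (horizontal axis, log2 units), 1 point for each of the 32 arrays, coloured by group. The array at 4.56 is R6/2 HSP990 replicate 5, where Stip1 was at 7.11 and Cdc37 at 8.60, each the lowest of all arrays shown, while Ahsa1 at 10.85 lay within its group.

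St13, also called HIP, binds HSP70 and holds it in the state that keeps a client bound. Its values (lowest, median and highest array) were 11.27, 11.52 and 11.67 in R6/2 HSP990 and 11.08, 11.12 and 11.28 in R6/2 vehicle arrays, and 11.55, 11.70 and 11.80 in WT HSP990 and 10.95, 11.13 and 11.31 in WT vehicle arrays. The R6/2 vehicle arrays lay within the range of the WT vehicle arrays, and all treated WT arrays and 7 of 8 treated R6/2 arrays lay above the vehicle arrays of their genotype.

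St13 rose by 0.34 ± 0.06 in R6/2 mice (1.26-fold, adjusted p = 0.000618) and by 0.57 ± 0.06 in WT mice (1.48-fold, adjusted p = 1.53e-08). On HSP990 it was lower in R6/2 mice by 0.19 log2 units (-0.19 ± 0.05, adjusted p = 0.00714), a call that ended with the mean of its 3 probe sets (-0.12, adjusted p = 0.0506). On vehicle the genotypes differed by 0.04 (95% interval -0.08 to 0.17). Of its dimmer probe sets, 1460193_at rose in WT mice (0.52 ± 0.08) and had 0.21 ± 0.09 in R6/2 mice, which did not pass, and 1416851_at passed in neither.

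Cdc37 is the co-chaperone that brings protein kinases to HSP90. Array values (lowest, median, highest) were 8.60, 9.76 and 10.11 in R6/2 HSP990 and 9.09, 9.53 and 9.99 in R6/2 vehicle arrays, and 9.64, 9.83 and 9.98 in WT HSP990 and 9.37, 9.64 and 10.09 in WT vehicle arrays. All 4 groups overlapped, and the lowest treated R6/2 array was again replicate 5.

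The difference of Cdc37 between HSP990 and vehicle was 0.11 (95% interval -0.22 to 0.44) in R6/2 mice and 0.13 (95% interval -0.19 to 0.45) in WT mice, and its genotype differences were -0.21 on HSP990 and -0.20 on vehicle. None passed. Over the 43 alternatives, among them the fit without replicate 5, the R6/2 treatment difference was 0.04 to 0.25. Its adjusted p was 0.392 or more in all of them. A dim second probe set, 1416820_at, with a mean of 5.05, was lower in R6/2 mice on HSP990 (-0.32 ± 0.08, adjusted p = 0.00225) and on vehicle (-0.31 ± 0.09, adjusted p = 0.0141). Its differences between treatments, 0.05 in R6/2 mice and 0.06 in WT mice, did not pass either.

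Fkbp4 encodes FKBP52, a peptidyl-prolyl isomerase that joins HSP90 in steroid receptor complexes. The lowest, median and highest arrays had 8.99, 9.43 and 9.62 in R6/2 HSP990 and 8.44, 8.63 and 9.01 in R6/2 vehicle arrays. They were 9.17, 9.27 and 9.49 in WT HSP990 and 8.09, 8.28 and 8.58 in WT vehicle arrays. Treated WT arrays lay above all WT vehicle arrays, and 7 of 8 treated R6/2 arrays above all R6/2 vehicle arrays, the exception at 8.99 being replicate 5. WT vehicle was the lowest group and overlapped R6/2 vehicle.

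Fkbp4 rose by 0.68 ± 0.09 in R6/2 mice (1.60-fold, adjusted p = 5.29e-06) and by 1.03 ± 0.08 in WT mice (2.05-fold, adjusted p = 1.03e-10). On vehicle it was higher in R6/2 mice by 0.41 ± 0.09 (adjusted p = 0.00104), and on HSP990 the genotypes differed by 0.06 (95% interval -0.10 to 0.22). At 1416363_at, a dimmer probe set with a mean of 7.02, it rose by 0.47 ± 0.11 in R6/2 mice and 0.36 ± 0.10 in WT mice, and the genotype difference on vehicle was -0.11, which did not pass. With the mean of its 3 probe sets the genotype call on vehicle ended (0.11, adjusted p = 0.256).

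Chordc1 and Cacybp encode HSP90-binding proteins with a CS domain, the fold of the co-chaperone p23 that Ptges3 encodes. Chordc1, also called morgana, is a zinc-binding co-chaperone, and its promoter holds the run of 5 units shown above. Its lowest, median and highest values were 10.01, 10.42 and 10.72 in R6/2 HSP990 and 9.43, 9.68 and 9.82 in R6/2 vehicle arrays, and 10.47, 10.62 and 10.91 in WT HSP990 and 8.83, 9.46 and 9.79 in WT vehicle arrays. Treated and vehicle arrays did not overlap in either genotype.

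Chordc1 rose by 0.78 ± 0.10 in R6/2 mice (1.71-fold, adjusted p = 6.68e-06), which was the largest of the 9 differences there, and by 1.25 ± 0.10 in WT mice (2.37-fold, adjusted p = 5.19e-11). Its genotype differences were -0.22 ± 0.09 on HSP990 (adjusted p = 0.0704) and 0.25 ± 0.10 on vehicle (adjusted p = 0.0823), and neither passed. Without R6/2 HSP990 replicate 5 the first passed (-0.26, adjusted p = 0.0328), and without WT vehicle replicate 3 the second did (0.32, adjusted p = 0.023). With the 3' minus 5' control signal as a covariate both passed (-0.31, adjusted p = 0.00915, and 0.29, adjusted p = 0.0296). Of the 43 alternatives, the first passed in 6 and the second in 2.

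Cacybp encodes a protein that binds the calcium sensor calcyclin and the ubiquitin ligase SIAH1 as well as HSP90. Lowest, median and highest values were 10.27, 10.96 and 11.16 in R6/2 HSP990 and 9.83, 10.26 and 10.38 in R6/2 vehicle arrays. They were 10.68, 11.01 and 11.26 in WT HSP990 and 9.64, 9.69 and 10.03 in WT vehicle arrays. In WT mice the groups were far apart, and in R6/2 mice 7 of 8 treated arrays lay above every vehicle array.

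Cacybp rose by 0.68 ± 0.11 in R6/2 mice (1.60-fold, adjusted p = 0.000156) and by 1.25 ± 0.10 in WT mice (2.38-fold, adjusted p = 1.51e-10). On vehicle it was higher in R6/2 mice by 0.40 ± 0.11 (adjusted p = 0.00821), with 5 of 7 arrays above every WT array. On HSP990 its genotype difference was -0.17 ± 0.10 (adjusted p = 0.197). Its slope on the 3' minus 5' control signal was -0.12 ± 0.05 over all arrays (adjusted p = 0.14, not passing) and -0.29 ± 0.07 without R6/2 HSP990 replicate 5 (adjusted p = 0.00369), and with that signal as a covariate its differences between treatments were 0.76 ± 0.11 in R6/2 mice and 1.21 ± 0.10 in WT mice.

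**Figure D3:**
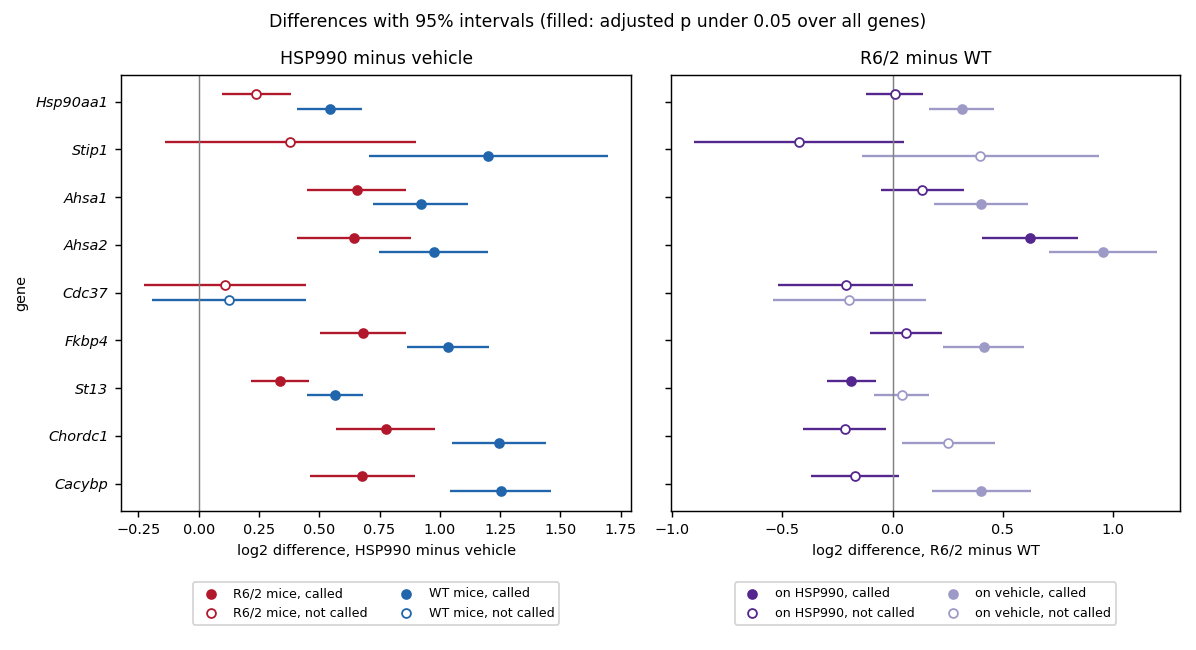
Log2 difference of the 9 measured genes (vertical axis) with 95% interval, HSP990 minus vehicle in R6/2 and WT mice (left) and R6/2 minus WT on HSP990 and on vehicle (right); filled points passed at an adjusted p under 0.05 over all genes. The R6/2 point lies left of the WT point for all 9 genes in the left panel, and Ahsa2 alone is called and above 0 on both treatments in the right panel.

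On vehicle 5 of 9 were higher in R6/2 mice and none was lower (Hsp90aa1, Ahsa1, Ahsa2, Fkbp4 and Cacybp), where 11.9% of all genes were higher and 9.6% lower. The median difference was 0.40, beside -0.01 over all genes, and none of the 9 had all R6/2 vehicle arrays above all WT vehicle arrays, as 1.53% of all genes had. On HSP990 1 was higher (Ahsa2, where 22.6% of all genes were) and 1 was lower (St13, where 11% were), with a median of -0.17 beside 0.04 over all genes. The vehicle and HSP990 comparisons of genotypes share no arrays, but each shares arrays with the treatment comparisons.

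Whether the response itself differed between genotypes was asked by the interaction, the R6/2 response minus the WT response. It was negative for all 9 genes and for 6901 of all 18193 genes, with a median of -0.33 beside 0.05 over all genes. None of the 9 passed in limma, where 0.247% of all genes did. Of the 9, 7 had an unadjusted p under 0.05, as had 2345 of all 18193 genes. The interaction was -0.57 ± 0.15 for Cacybp (adjusted p = 0.0809), -0.47 ± 0.14 for Chordc1 (0.129), -0.30 ± 0.10 for Hsp90aa1 (0.161), -0.35 ± 0.12 for Fkbp4 (0.195) and -0.23 ± 0.08 for St13 (0.225).

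For Ahsa2 the interaction was -0.33 ± 0.16 (adjusted p = 0.383, and -0.51 with the 3' minus 5' control signal as a covariate, adjusted p = 0.296), for Stip1 -0.82 ± 0.35 (0.317), for Ahsa1 -0.27 ± 0.14 (0.427) and for Cdc37 -0.02 ± 0.23 (0.983). Put as a share, the R6/2 difference was 71.2% of the WT difference for Ahsa1, 66% for Ahsa2, 65.9% for Fkbp4, 62.3% for Chordc1, 59.8% for St13, 54.2% for Cacybp and 44% for Hsp90aa1, on the log2 scale. With the mean of its probe sets the Fkbp4 interaction was -0.05 ± 0.09, and at 1416363_at it was 0.10 ± 0.15, so its size rests on the brightest probe set. The share of 31.7% for Stip1 includes R6/2 HSP990 replicate 5. Without that array the Stip1 interaction was -0.50 ± 0.18 (adjusted p = 0.28), and with the 3' minus 5' control signal as a covariate it was -0.19 ± 0.22 (adjusted p = 0.932). Cacybp passed for the interaction without R6/2 vehicle replicate 1 (-0.63, adjusted p = 0.0299). It passed in 2 of the 42 alternatives, with values of -0.63 to -0.45 and adjusted p up to 0.412 over all of them.

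Of the 19 probe sets of the 9 genes, 10 rose in R6/2 mice, where 1.67% of all single-gene probe sets did, and 14 rose in WT mice, where 2.66% did. On HSP990 1 was higher in R6/2 than in WT mice and 2 were lower (18% and 11.9% of all probe sets), and on vehicle 9 were higher and 1 lower (9.39% and 7.68%). None passed for the interaction (0.209% of all). No probe set fell on HSP990 in either genotype, and of those that did not rise in WT mice, 2 belong to Cdc37 and 1 each to Hsp90aa1, Fkbp4 and St13.

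**Figure D4:**
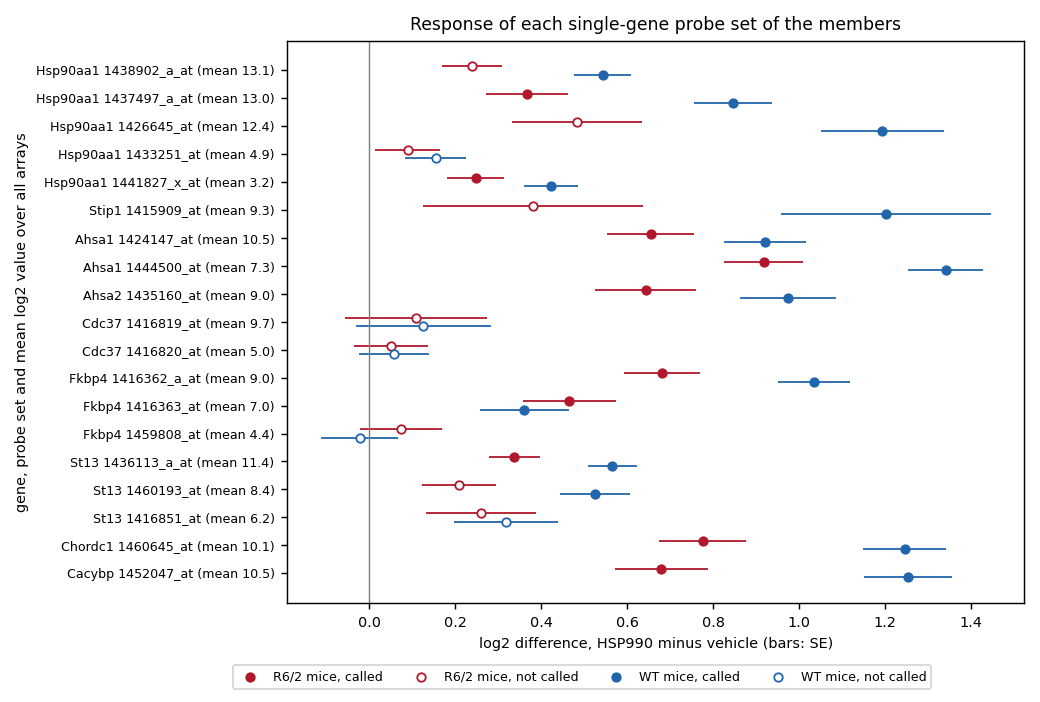
Log2 difference, HSP990 minus vehicle (horizontal axis, bars are SE), of the 19 single-gene probe sets of the 9 genes (vertical axis, with the mean log2 value over all arrays); red is R6/2, blue is WT, and filled points passed at an adjusted p under 0.05 over all single-gene probe sets. The 3 bright Hsp90aa1 probe sets gave WT values of 0.54, 0.85 and 1.19, and neither Cdc37 probe set passed in either genotype.

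Each gene was also set beside the gene outside the 10 whose log2 values correlated most with it over the 32 arrays, as a description, since the arrays share their 4 groups. Dnajb1, an HSP40 co-chaperone gene, was nearest to Fkbp4 (Pearson r = 0.948), Chordc1 (0.936) and Ahsa1 (0.934). Dnaja1, another HSP40 gene, was nearest to Cacybp (0.967), and Cct6a, a chaperonin subunit gene, to Hsp90aa1 (0.907). With group means removed these were 0.448, 0.617, 0.618, 0.750 and 0.606. The nearest gene was Taok3 for Ahsa2 (0.946), Lpar6 for St13 (0.945), Abhd8 for Cdc37 (0.910) and Atic for Stip1 (0.875), and for Cdc37 the correlation was as high with group means removed (0.916).

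The rest of the HSP90 machinery was listed too. Of 32 other measured HSP90 paralogs and co-chaperones, 1 rose in R6/2 mice and none in WT mice, and 1 fell in WT mice, with median differences of -0.01 in R6/2 mice and -0.04 in WT mice. Over all genes 2.18% rose in R6/2 mice, and 2.24% rose and 3.57% fell in WT mice, so the counts of the list are near the background. The gene that rose was Ruvbl2, an ATPase of the R2TP assembly complex (means of 8.05 in R6/2 HSP990 and 7.49 in R6/2 vehicle arrays, 0.56 ± 0.15, adjusted p = 0.0352), a call that ended in 12 of 43 alternatives, among them without R6/2 HSP990 replicate 5 (adjusted p = 0.0545). Fkbp5, whose product binds HSP90 in steroid receptor complexes and is itself raised by glucocorticoids, fell, with means of 8.48 in WT HSP990 and 9.22 in WT vehicle arrays (-0.74 ± 0.16, adjusted p = 0.003). In R6/2 mice Fkbp5 had means of 8.50 on HSP990 and 8.85 on vehicle, a difference of -0.35 ± 0.17 that did not pass. The interaction of Fkbp5 did not pass either.

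Among the paralogs, Hsp90b1 encodes the HSP90 of the endoplasmic reticulum and Trap1 that of mitochondria. Hsp90b1 had means of 10.98 in R6/2 HSP990, 11.18 in R6/2 vehicle, 11.27 in WT HSP990 and 11.27 in WT vehicle arrays, so neither treatment difference passed, and on HSP990 it was lower in R6/2 mice (-0.29 ± 0.07, adjusted p = 0.00238). Trap1 lay between 8.40 and 8.51 in all 4 group means, and no comparison passed. Hsp90ab1, the constitutive cytosolic paralog, was not analysed here because no probe set named it alone. Between genotypes 8 of the 32 were higher and 3 lower in R6/2 mice on HSP990, and 1 was higher and 2 lower on vehicle, shares close to those of all genes or below them.

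Transcripts of HSP90 client proteins were also listed, since clients are what the chaperone holds. Of 30 measured, 1 rose in R6/2 mice (Chek1), 1 rose in WT mice (Ntrk2) and 1 fell in WT mice (Wee1), with medians of 0.02 in both genotypes. Of all genes 2.18% rose in R6/2 mice, and 2.24% rose and 3.57% fell in WT mice. The counts of this list are therefore near the background. Chek1, a DNA damage checkpoint kinase gene, had means of 5.36 in R6/2 HSP990, 4.87 in R6/2 vehicle, 4.84 in WT HSP990 and 5.00 in WT vehicle arrays, all below the median of all probe sets. Its rise in R6/2 mice was 0.50 ± 0.09 (adjusted p = 0.000824), and with the mean of its probe sets it was 0.14 ± 0.04 (adjusted p = 0.0475).

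Ntrk2, the gene of the BDNF receptor TrkB, was 0.39 ± 0.09 higher on HSP990 in WT mice (adjusted p = 0.00957) and 0.01 in R6/2 mice, but its interaction did not pass. Wee1, a kinase gene that holds back mitosis, was lower by 0.35 on HSP990 in WT mice (-0.35 ± 0.09, adjusted p = 0.00911), a call that ended with the mean of its probe sets (-0.20, adjusted p = 0.242). Between genotypes 5 clients were higher and 8 lower in R6/2 mice on HSP990, and 2 were higher and 5 lower on vehicle. Over all genes 22.6% were higher and 11% lower on HSP990, and 11.9% were higher and 9.6% lower on vehicle. Pdpk1, a kinase gene of insulin signalling (-0.52 on HSP990 and -0.58 on vehicle), and Nos1, the neuronal nitric oxide synthase gene (-0.71 and -0.70), were lower on both, as was Lrrk2 (-1.0 and -0.91), while Hif1a was higher on both (0.27 and 0.39), though not with the mean of its probe sets (0.08 and 0.07). Wee1 was also higher in R6/2 mice on both, by 0.38 to 0.75 on HSP990 over the 43 alternatives (adjusted p up to 0.00118). On vehicle its call ended in 5 of 43, among them the mean of its probe sets (0.17, adjusted p = 0.239).

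Chaperones that hand clients to HSP90, and the chaperonin that folds actin and tubulin, were listed as well. Of 9 cytosolic HSP70 and HSP110 genes, 6 rose in R6/2 mice and 5 in WT mice, with medians of 0.31 in R6/2 mice and 0.35 in WT mice, where 2.18% of all genes rose in R6/2 mice and 2.24% in WT mice. Hspa2, Hspa4 and Hspa14 passed in neither genotype. Hspa1l rose in R6/2 mice (0.31 ± 0.09, adjusted p = 0.0439), did not pass in WT mice (0.09 ± 0.08), and was dim, with a mean of 3.31 over all arrays. Its interaction, 0.22 ± 0.12, did not pass (adjusted p = 0.44). Hsph1, an HSP110 gene whose product exchanges the nucleotide of HSP70, rose by 0.81 ± 0.08 in R6/2 mice and 1.23 ± 0.08 in WT mice. Hspa8, the constitutive HSP70 gene, rose by 0.21 ± 0.06 in R6/2 mice, a call that ended in 22 of 43 alternatives, and by 0.35 ± 0.06 in WT mice. The inducible pair Hspa1a and Hspa1b, whose near-identical sequences can share signal, rose by 3.70 and 4.73 in R6/2 mice and by 5.31 and 5.46 in WT mice. Of the 8 TRiC/CCT chaperonin genes, 6 rose in R6/2 mice and 5 in WT mice, with medians of 0.29 in R6/2 mice and 0.36 in WT mice, and Cct4 and Cct8 passed in neither. On vehicle 5 of the 8 were higher in R6/2 mice, where 11.9% of all genes were.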

How the data were processed

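The deposited values are log2 expression values of 45101 Affymetrix probe sets on 32 arrays, already normalized by the authors (array medians of 5.73 to 5.78), by a method not given in the sources used here. Per the labels, RNA was labelled with a kit that transcribes from the 3' end, and the authors checked quality with RACE. Of the probe sets, 64 were controls, 34945 named 1 gene, 932 several and 9160 none; for 204 of the single-gene probe sets the platform's own symbol was used, which can be old, because the RefSeq gene list lacked the identifier. A gene was read at its single-gene probe set of highest mean, giving 18193 genes, with no filter on low values.

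The 4 group means were fitted to all arrays with limma 3.58.1 (R 4.3.3, data.table, version 1.17.8), with a moderated two-sided test and Benjamini-Hochberg adjustment over all genes of a comparison, threshold 0.05. There were 5 comparisons: the effect of HSP990 within R6/2 and within WT mice, the difference of R6/2 from WT mice under either treatment, and the interaction. Probe sets were fitted the same way over all 34945. The fit was also run on simulated data with known changes. The standard error rests on a spread shared by all groups, and fold changes are antilogs of log2 differences.

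The members, gene lists and tests were chosen with earlier results of these data known. Text names all members, listed paralogs and co-chaperones called on HSP990 with Hsp90b1, Trap1 and Fkbp5, up to 4 clients per comparison with the smallest p, and fixed examples of other lists. Alternatives were quantile normalization, median centring, dim probe sets left out, the mean of a gene's probe sets, all probe sets tested together, only the groups compared, trended and robust variance, array weights, a replicate block, the 3' bias as a covariate, arrays of strong 3' bias left out, and each array left out. Promoter sequences and gene names came from RefSeq tables (GRCm38.p6). The reported fit uses all arrays.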

Additional observations from a re-analysis of the deposited data

Results flagged for a closer look

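In 36 sets of 1 gene in 1 group, 3 had an array far from the rest of its group by Dixon's test, which chance flags in about 1 in 20. Stip1 was at 7.11 in R6/2 HSP990 replicate 5, with the next array at 9.27. Ahsa2 was at 10.15 in the same array, with the next at 9.78, so 2 of the 3 come from the array with the strongest 3' bias. Hsp90aa1 was at 13.49 in WT HSP990 replicate 6, with the next at 13.28, and the 3' minus 5' control signal of that array was 0.65.

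The interaction of genotype and HSP990 passed for 45 of all 18193 genes, none of them among the 9 measured here, and 2 of the 45 are among the genes named in the text. Chek1 had a response of 0.50 in R6/2 mice and -0.16 in WT mice, an interaction of 0.66 ± 0.12 (adjusted p = 0.0113). Hspa1a had a response of 3.70 in R6/2 mice and 5.31 in WT mice, an interaction of -1.61 ± 0.28 (adjusted p = 0.00543). For Hspa1b, which can share signal with Hspa1a, the interaction was -0.73 ± 0.42 and did not pass (adjusted p = 0.475).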

How the results depend on the processing

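In WT mice 8 of the 9 genes rose on HSP990 in every one of the 43 alternatives, and no called member difference changed sign in any comparison. The count in R6/2 mice ran from 6 to 7, that for the genotypes on HSP990 from 2 to 3 and that on vehicle from 4 to 6. For the interaction, 0 members passed; 1 passed where probe sets of a gene were averaged (Hsp90aa1, -0.35, adjusted p = 0.0487) and 1 with array weights (Cacybp, -0.57, adjusted p = 0.0397). Leaving out 1 array at a time gave 6 to 7 in R6/2 mice, 8 in WT mice, 2 to 3 on HSP990, 5 to 6 on vehicle and 0 to 1 for the interaction; the causes were not tested. With the replicate number as a block the counts of members were 6 in R6/2 mice, 8 in WT mice, 2 on HSP990, 5 on vehicle and 0 for the interaction, as without it. Deviations of same-numbered arrays correlated by -0.22 to 0.38. Of 7 pairs, 2 were over 0.1 for HSP990 against vehicle in R6/2 mice, 3 in WT mice, 3 for the genotypes on HSP990 and 5 on vehicle. Since not every pair was, and no label says that a number marks a shared animal or batch, the numbers were not taken as pairs.

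Counts over all genes moved more. In R6/2 mice 563 genes passed, but 202 with only the groups compared and 368 with 3' bias as a covariate. In WT mice 1056 passed, but 1815 with array weights and 655 with the replicate block. For the interaction 45 passed, but 80 with the mean of probe sets, 150 with array weights, 23 with the replicate block, 16 with 3' bias as a covariate and 25 with both arrays of strong 3' bias left out. The Chek1 interaction did not pass with the mean of its probe sets (0.21, adjusted p = 0.0773) or with 3' bias as a covariate (0.55, adjusted p = 0.0804). The number of arrays and RNA integrity limit these values, and for dim probe sets signal over background does.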
